A study of Sus scrofa domesticus and Sus scrofa with 18 samples.

Results

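Of the 12913 protein-coding genes measured in pig spleen, 91 (0.705%) peaked at birth, which was defined by their own levels. A gene was a member when its mean log2(FPKM+1) in newborn spleen exceeded the mean of each of 4 other domestic stages by at least 0.75, with a mean below 10 over all libraries. FPKM (fragments per kilobase of transcript scaled to the number of mapped fragments) relates a level to transcript length and library size. On this log2 scale a difference of 1 is a doubling for genes well above an FPKM of 1 and understates the change of genes below it. The spleens came from healthy female Rongchang pigs, a domestic Chinese breed, at 5 stages. The fetuses of E55d were taken 55 days before birth and the newborns of B0d just after it, W30d pigs had been weaned for 30 days, and the adults of A180d and A2Y were 180 days and 2 years of age. The last group came from female Wild Boars (WB) aged 2 years. Each of the 6 groups had 3 libraries of spleen, 18 in all, and the labels name no treatment, transgene or deletion for any group. WB and A2Y differ in breed, and any other difference between these animals cannot be told apart from it. The same rule gave 528 genes at E55d, 40 at W30d, 100 at A180d and 92 at A2Y.

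At birth the spleen of a mammal passes from a fetal organ that takes part in blood formation to a filter of circulating blood and a site of immune responses. Its stroma of fibroblastic reticular cells, endothelium and smooth muscle is laid down before the white pulp fills with lymphocytes. Birth also brings a surge of glucocorticoid hormones, a change in oxygen supply and the first exposure to microbes. Among the genes with a high level in newborn spleen were receptors of mesenchymal and endothelial cells (PDGFRA, AGTR1, LIFR, FGFR2), transcriptional regulators (TBX2, TBX3, KLF9, KLF4), complement and copper-binding plasma proteins (C7, CP) and the leukotriene enzyme ALOX5.

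Of the 91 identifiers, 56 were paired with a gene symbol and 35 were not. All 91 passed the filter on low values (FPKM above 0.1 in at least 3 libraries), as did all 12913 genes, so the filter removed none of them. The excess of the B0d mean over the highest other domestic mean ranged from 0.75 to 1.62 with a median of 0.93. LGR4, a receptor of R-spondins, lay just inside the limit at 0.750133, and UNC13C lay just outside it at 0.749558, followed among genes with a symbol by the immediate early gene EGR1 at 0.74. The upper limit on the mean removed 0 genes, and the highest mean among the members was 9.86, for HBB.

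Some libraries stood apart from their group. The mean correlation of B0d replicate 3 with the other B0d libraries over all genes was 0.938, against 0.956 and 0.957 for replicates 1 and 2, and W30d replicate 2 stood at 0.938 against 0.958 and 0.964. The spleen label was checked with TLX1, a homeobox gene needed for spleen formation, whose group means lay between 2.72 and 4.19 on the log2 scale. The summed FPKM of the 4 measured macrophage markers was 19.2 to 21.9 at E55d, 298.5 to 455.2 at B0d and 212.3 to 434.0 at the later domestic stages. The 3 measured B cell markers summed to 10.3 to 13.0 at E55d, 22.4 to 29.6 at B0d and 54.4 to 168.4 later, and the 5 T cell markers to 3.9 to 4.5, 20.4 to 29.5 and 36.7 to 163.3. None of the listed markers of megakaryocytes, pancreas, adrenal, stomach, skeletal muscle or fat had a row paired with its symbol, so admixture of those tissues could not be read from them.

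The median level of the 91 genes was 3.21 on the log2(FPKM+1) scale at B0d, and 1.77 at E55d, 1.98 at W30d, 1.76 at A180d and 1.84 at A2Y. Over all genes the medians of the same group means lay between 2.26 and 2.48. These differences follow from the rule that chose the genes and are given as a description. In whole spleen, a lower number of cells of one type and less RNA per cell cannot be told apart. The second highest domestic stage was W30d for 31 genes, A2Y for 22, E55d for 20 and A180d for 18. The lowest was E55d for 39 genes, A180d for 31, W30d for 12 and A2Y for 9.

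**Figure D1:**
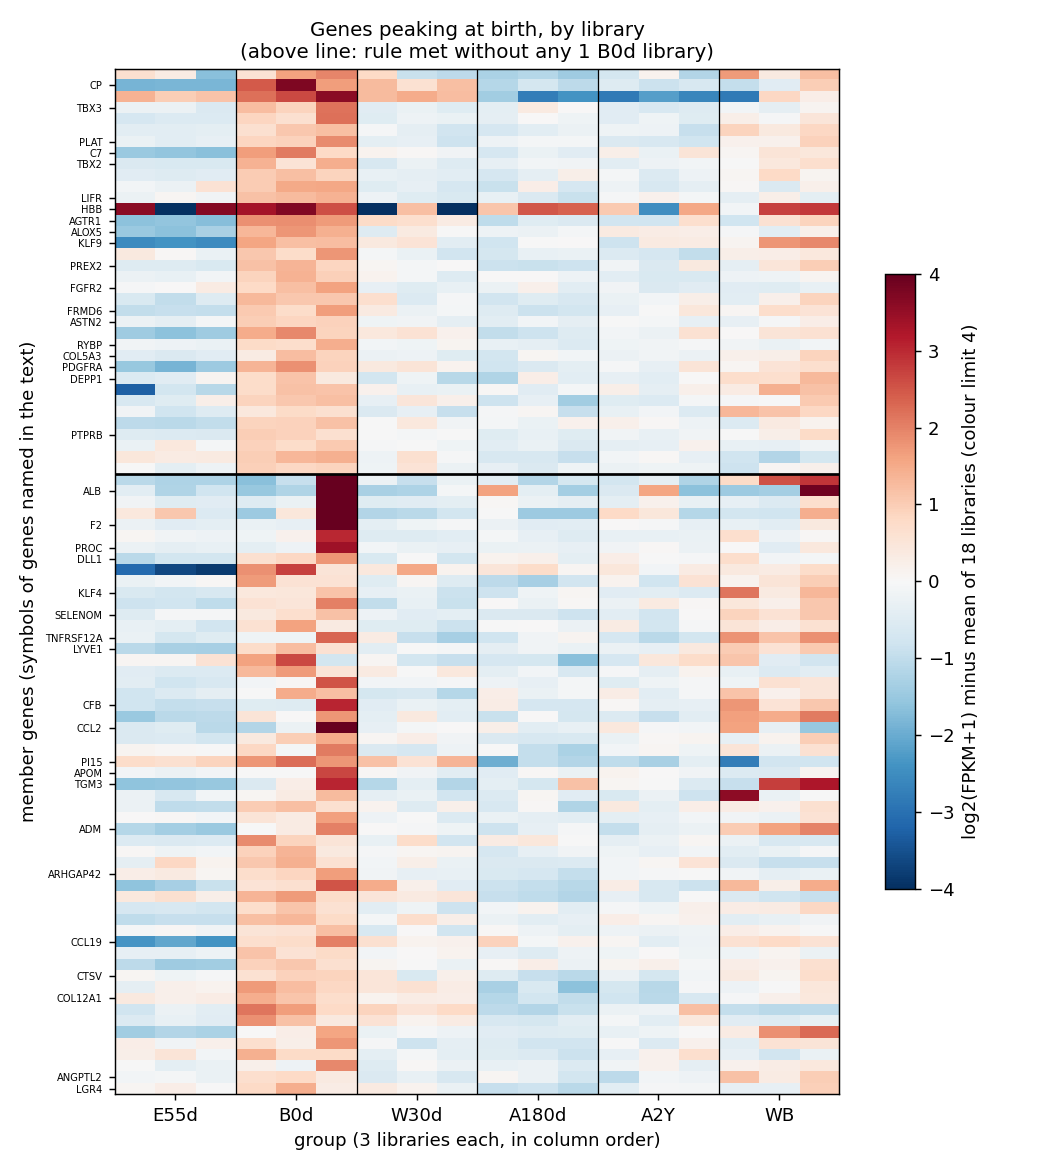
Heat map of the 91 genes (vertical axis, with the symbols of genes named in the text) in the 18 libraries (horizontal axis, 3 per group), coloured by log2(FPKM+1) minus the gene's mean over the 18 libraries. The upper block holds the 36 genes that met the rule without any 1 of the B0d libraries, and the lower block the other 55, many of them darkest in 1 B0d library.

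The newborn libraries did not contribute alike. The median spread within the group (SD of 3 libraries) was 0.52 for the members at B0d against 0.23 for all genes, while at E55d it was 0.14 against 0.12. Replicate 3 was the highest of the 3 newborn libraries in 47 of the 91 genes, replicate 2 in 31 and replicate 1 in 13, and replicate 3 was the highest for 41.9% of all genes. In 61 of the 91 genes every B0d library lay above every other domestic library, as it did for 1.69% of all genes, a count that the rule favours. The rule was met after leaving out each newborn library in turn for 36 genes. Without replicate 3 it was no longer met by 30 members, without replicate 2 by 18 and without replicate 1 by 10.

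**Figure D2:**
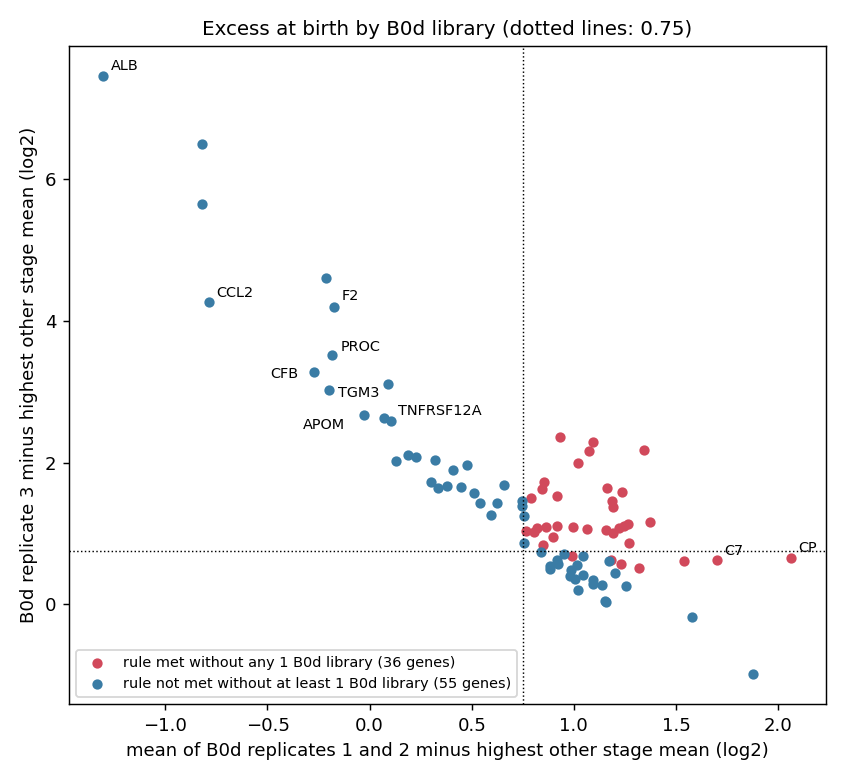
Each point is 1 of the 91 genes. The horizontal axis gives the mean of B0d replicates 1 and 2 minus the highest other domestic stage mean and the vertical axis gives the same for B0d replicate 3, both in log2(FPKM+1), with dotted lines at 0.75. In the 10 genes left of 0, with ALB at the far end, the mean of replicates 1 and 2 was below the highest other stage mean.

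The receptors PDGFRA, AGTR1, LIFR and FGFR2 were high in all newborn libraries. PDGFRA, the platelet-derived growth factor receptor of mesenchymal cells, stood at 6.04, 6.49 and 5.61 at B0d, and at 3.16, 2.82 and 3.22 at E55d. Its later values were 5.08, 5.19 and 4.83 at W30d, 3.86, 4.11 and 4.28 at A180d and 4.61, 4.35 and 5.18 at A2Y, so the newborn libraries did not overlap any other domestic stage. AGTR1, the type 1 receptor of angiotensin II, was the most even across newborn libraries of these receptors, at 6.36, 6.37 and 6.24. It stood at 2.88, 2.96 and 2.81 at E55d, 5.29, 5.18 and 4.84 at W30d, 3.52, 4.05 and 3.95 at A180d and 3.75, 3.74 and 5.20 at A2Y. For PDGFRA and AGTR1 the fetal level was the lowest and the level after weaning came second.

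LIFR and FGFR2 followed another order. LIFR, the receptor of leukemia inhibitory factor, stood at 5.65, 5.75 and 5.88 at B0d, against 3.61 to 4.66 in the 12 other domestic libraries. FGFR2, a fibroblast growth factor receptor, stood at 2.04, 2.45 and 2.85 at B0d and at 1.17, 1.24 and 1.57 at E55d, with 0.66 to 1.44 at the later stages. Neither was lowest in the fetus, as LIFR had its lowest mean at A180d (3.91 ± 0.30, SD, n = 3) and FGFR2 at A2Y (0.85 ± 0.22, SD, n = 3). PREX2, an exchange factor for the GTPase Rac, stood at 3.78, 3.97 and 3.46 at B0d against 1.72 to 2.99 elsewhere in domestic pigs.

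Among transcriptional regulators, KLF9, a Krüppel-like factor induced by glucocorticoid and thyroid hormones, had the widest step from fetus to newborn of the genes in this group. It stood at 0.68, 0.79 and 0.68 at E55d and at 4.76, 4.39 and 4.43 at B0d. Later values were 3.57, 3.73 and 2.76 at W30d, 2.37, 3.16 and 3.19 at A180d and 2.36, 3.55 and 3.50 at A2Y, all below every newborn library. The T-box genes TBX2 and TBX3, repressors that pattern mesenchyme in many organs, had no such low fetal level. TBX3 stood at 2.98, 2.65 and 3.91 at B0d against 1.09 to 2.10 in the other domestic libraries, and TBX2 at 3.58, 2.72 and 3.62 against 1.52 to 2.07. Both groups of values were separate. RYBP, a Polycomb component, stood at 4.16, 4.09 and 4.84 at B0d against 2.84 to 3.49 elsewhere. DLL1, a Notch ligand, stood at 4.45, 4.64 and 5.57 against 2.73 to 4.08, and no longer met the rule without replicate 3. KLF4, a Krüppel-like factor of endothelium and monocytes, stood at 2.52, 2.54 and 3.23 against 1.24 to 2.18.

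Members that encode plasma or inflammatory proteins were of both kinds, some high in all newborn libraries, given here, and others, such as F2, PROC and CFB, in replicate 3 only, given below. CP encodes ceruloplasmin, a copper-carrying ferroxidase. It was near 0 in the fetus (0.02, 0.05 and 0.03), stood at 4.32, 5.61 and 3.56 at B0d, at 3.14, 2.48 and 3.08 at W30d, and at 0.73 to 1.36 in the 6 adult domestic libraries. C7, a component of the membrane attack complex of complement, had the highest newborn level of the members that kept the rule without any newborn library except HBB, at 8.68, 9.09 and 7.81. Its other domestic values ran from 5.34 to 5.55 at E55d and from 6.36 to 7.55 later. PLAT, tissue plasminogen activator, stood at 2.86, 2.91 and 3.86 at B0d against 1.14 to 1.92 elsewhere. ALOX5, the first enzyme of leukotriene synthesis in myeloid cells, stood at 3.48, 3.92 and 3.57 at B0d, at 0.51 to 0.84 at E55d and at 1.64 to 2.51 later. The macrophage markers moved the same way between E55d and B0d, and their part in this was not tested.

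**Figure D3:**
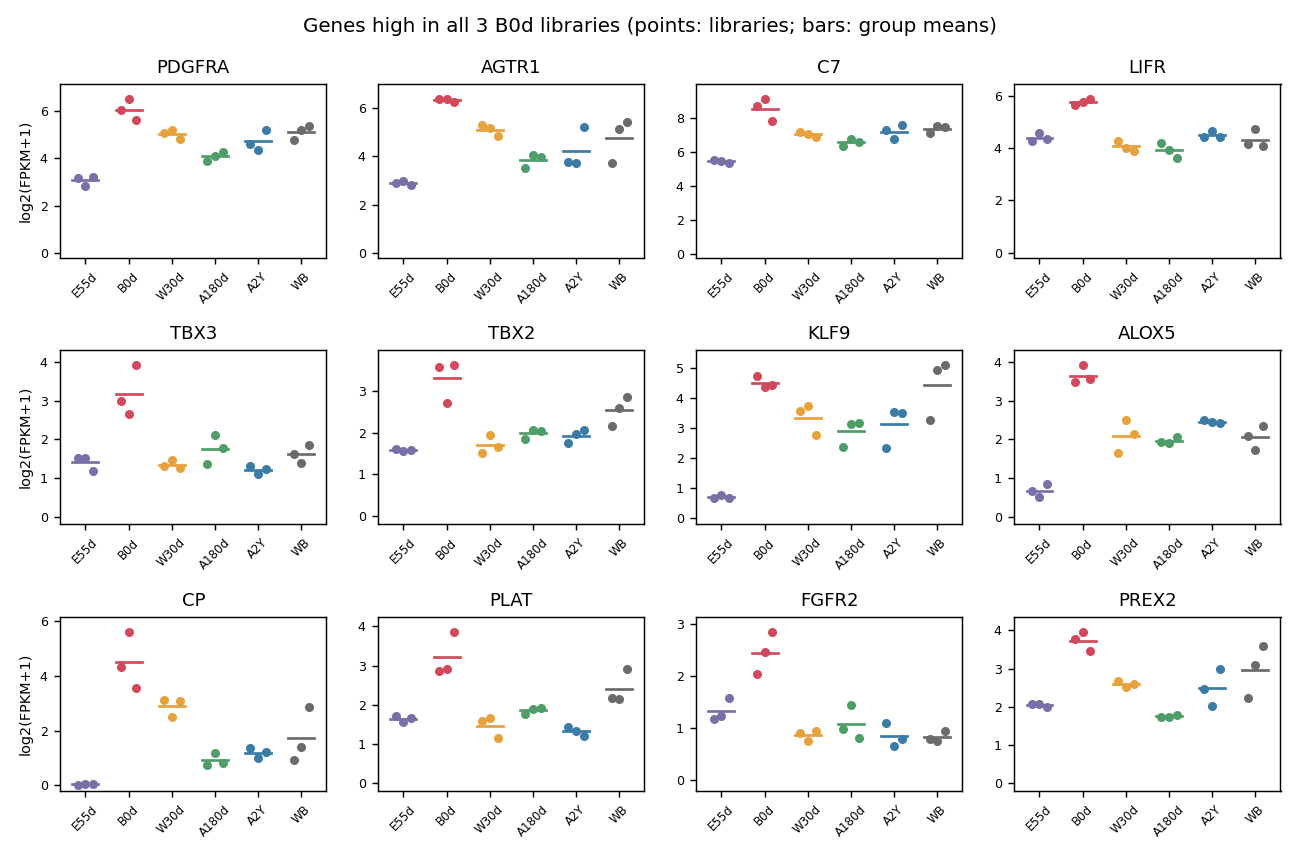
log2(FPKM+1) (vertical axes) of 12 genes in each library (points, coloured by group) with group means (bars), for the 5 domestic stages and WB. In each panel the 3 newborn points lie above all points of the other 4 domestic stages, and 2 of the 3 WB points of KLF9 lie above the newborn points.

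The smaller members of the same kind included structural and adhesion genes. FRMD6, a FERM-domain protein of the Hippo pathway, stood at 4.55, 4.23 and 5.17 at B0d against 2.51 to 3.97 in the other domestic libraries. COL5A3, a fibrillar collagen chain, stood at 2.32, 3.23 and 2.87 against 1.26 to 2.08. ASTN2, an astrotactin, was low throughout at 1.64, 1.48 and 1.55 against 0.23 to 0.62. These 3 genes were each separated from all other domestic libraries. DEPP1, a target of FOXO factors, stood at 2.81, 3.24 and 2.47 against 0.88 to 2.36. SELENOM, a selenoprotein, stood at 3.90, 4.18 and 4.68 against 2.68 to 3.50. KLF4 and SELENOM lost the rule without replicate 3.

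A second set of members rested on B0d replicate 3. In 13 members, 8 of them with a symbol, replicate 3 exceeded both other newborn libraries by more than 2 on the log2 scale, as it did in 50 genes of the whole table. ALB, serum albumin made by hepatocytes, stood at 0.13, 0.45 and 9.05 in the newborn libraries and at 0.02 to 3.25 in the other domestic ones. The clotting factor genes F2 (prothrombin) and PROC (protein C) stood at 0.37, 0.29 and 4.70 and at 0.07, 0.26 and 3.87. In replicates 1 and 2 neither gene was above the highest library of the other domestic stages, which was 0.65 for F2 and 0.50 for PROC.

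The plasma protein genes APOM and CFB stood at 0.74, 0.75 and 3.45 and at 0.76, 0.73 and 4.29 in the newborn libraries, and they and TGM3 were named after their values were seen. CCL2, the monocyte chemokine, stood at 2.35, 3.30 and 7.87, TNFRSF12A, the receptor of TWEAK, at 2.28, 2.26 and 4.75, and TGM3, a transglutaminase, at 1.03, 1.88 and 4.68. The 2 measured liver markers, ALB and APOA1, of 4 listed, had a summed FPKM of 684.4 in replicate 3 and of 49.5 in the lowest newborn library, against 16.7 to 68.0 in the other domestic libraries and 51.4 to 119.7 in WB. APOA1 alone stood at 5.67, 5.65 and 7.28 at B0d. TF, the transferrin gene, which is no member, stood at 0.67, 0.65 and 7.43. The part of liver transcripts in these values was not tested, and the markers at hand do not include TTR or SERPINA1. In 10 members the mean of replicates 1 and 2 lay below the highest other stage mean.

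**Figure D4:**
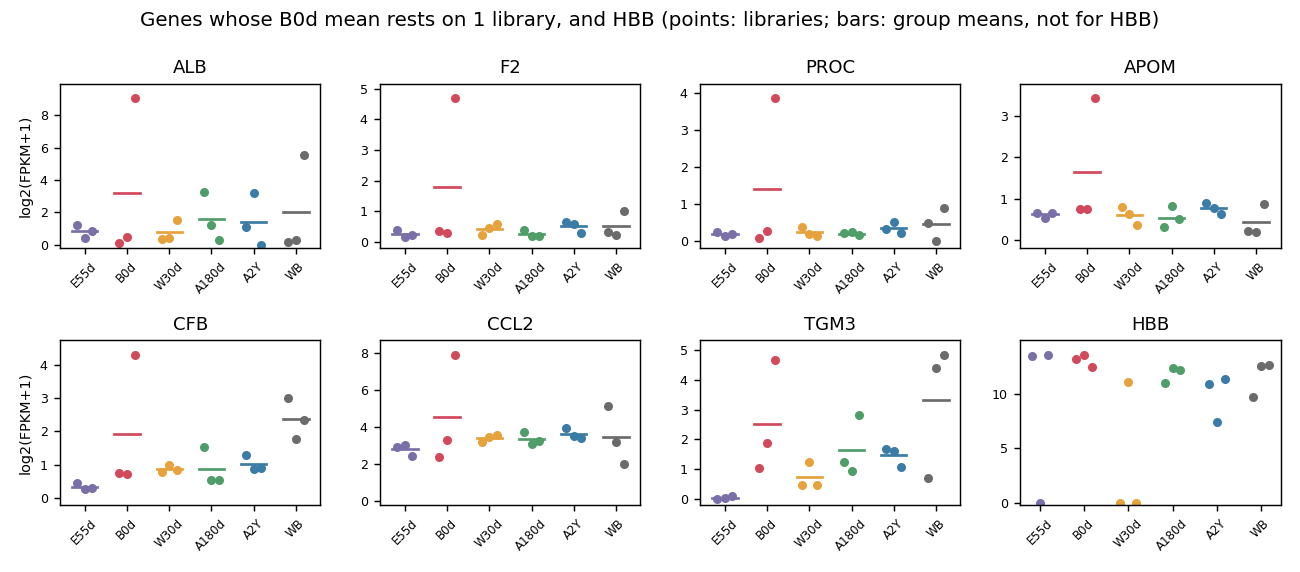
log2(FPKM+1) (vertical axes) of 7 genes that were more than 2 higher in B0d replicate 3 than in both other newborn libraries, and of HBB, in each library (points) with group means (bars, not drawn for HBB). For ALB the newborn points lie at 0.13, 0.45 and 9.05, and for HBB 3 points lie at 0.

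HBB, a beta globin chain of adult hemoglobin, was a member through listed zeros. It stood at 13.20, 13.55 and 12.44 at B0d, and at 13.46, 0 and 13.52 at E55d. At W30d it was listed at 0, 11.06 and 0, at A180d it stood at 10.97, 12.33 and 12.21, and at A2Y at 10.91, 7.38 and 11.39. The mean of the E55d libraries not at 0 was 13.49, above the newborn mean. An exact 0 for so abundant a transcript can be a failed estimate, and reads of near-identical globin copies can be split between them, so the level of HBB is uncertain. In all, 5 members, among them TGM3, had an exact 0 in at least 1 domestic library.

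The comparison of W30d with E55d asked how these genes differed between the fetal spleen and the spleen after weaning. The rule holds both stages below B0d and does not set their order. By limma with Benjamini-Hochberg adjustment over all genes, 24 members were higher and 1 was lower at W30d, 27.5% of the 91, against 49.3% of all genes (30.8% higher and 18.5% lower). The share called was below that of the whole table. The fit took its spread from all 18 libraries, among them the B0d libraries that chose the members, so nothing is read from this. At B0d the median SD was 0.52 for the members and 0.23 for all genes. The median difference between W30d and E55d was 0.15 for the members and 0.15 for all genes. At an unadjusted p of 0.05, 29 members passed. With each library scaled by its median ratio, which moved the median of all genes to 0.02, 23 members were higher and 6 lower. The share of all genes was not counted at this p or with this scaling, so nothing is read from these counts.

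CP rose by 2.87 ± 0.44 on the log2 scale (SE, adjusted p = 6.3e-05), KLF9 rose by 2.64 ± 0.42 (adjusted p = 7.7e-05) and CCL19, a chemokine of the T cell zone, rose by 2.60 ± 0.31 (adjusted p = 4.1e-06). All W30d libraries lay above all E55d libraries for these genes, and the calls held without any 1 library. CCL19 stood at 3.18, 3.47 and 3.16 at E55d and at 6.18, 5.70 and 5.71 at W30d. Among the receptors AGTR1 rose by 2.22 ± 0.38 and PDGFRA by 1.96 ± 0.24 (adjusted p = 0.00017 and 6.8e-06). ARHGAP42, a GTPase-activating protein, was the member that fell, by 0.50 ± 0.20 (adjusted p = 0.046), a call lost without any 1 of the 6 libraries, where the adjusted p reached 0.14. Of the 19 called genes with a symbol, 14 were called after each library was left out. Macrophage, B cell and T cell markers were higher at W30d than at E55d (above). In contrast, 11 of 14 matrix and stroma genes and both stroma markers were lower, beside 18.5% of all genes. The part of these markers and genes in the differences of the members was not tested.

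The comparison of A2Y with E55d, over the whole span of domestic stages, shares the E55d libraries with the one before. Of the members, 20 were higher and 7 lower at A2Y by limma, 29.7%, against 58.5% of all genes (38.3% higher and 20.2% lower), with a median difference of 0.20 for the members and 0.23 for all genes. Here too the spread of the fit included the B0d libraries, and nothing is read from the lower share of members called. At an unadjusted p of 0.05, 30 members passed. With median ratio scaling the split became 16 higher and 12 lower. For these counts too the share of all genes was not counted, and nothing is read from them.

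KLF9 rose by 2.42 ± 0.42 from E55d to A2Y (SE, adjusted p = 0.00012), CCL19 by 2.09 ± 0.31 (adjusted p = 2.5e-05) and ALOX5 by 1.79 ± 0.20 (adjusted p = 1.7e-06). CCL19 stood at 5.61, 5.12 and 5.34 at A2Y and ALOX5 at 2.50, 2.44 and 2.43, apart from their fetal values. PI15, a secreted peptidase inhibitor, fell by 1.65 ± 0.42 (adjusted p = 0.0033), from 4.55, 4.46 and 4.70 to 2.81, 2.51 and 3.43. COL12A1, a collagen bound to fibril surfaces, fell by 1.13 ± 0.19 (adjusted p = 7.8e-05), from 3.80, 3.61 and 3.68 to 2.60, 2.33 and 2.76. CP was called higher at A2Y (1.17 ± 0.44, adjusted p = 0.033) and was lost in 5 of the 6 fits without 1 library. Its A2Y values (1.36, 1.01 and 1.23) nevertheless all lay above its E55d values (0.02, 0.05 and 0.03). The SE was pooled over all 6 groups, and the SD of CP was 1.04 at B0d and 1.00 in WB. Of the 14 measured matrix and stroma genes 12 fell from E55d to A2Y, beside 20.2% of all genes, with a median of -2.03 over the list. Both measured spleen stroma markers fell, their summed FPKM being 18.5 to 23.2 at E55d and 11.3 to 12.3 at A2Y. The part of these and of the immune cell markers was not tested. Some members that peaked at birth stayed above their fetal level in the adult and others ended below it.

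The comparison of WB with A2Y asked how these genes differed between Wild Boars and domestic pigs of the same age. WB libraries did not enter the rule's stage means, whereas the A2Y libraries did as an upper limit, which holds the A2Y level of the members down. By limma, 18 members were higher and 3 lower in WB, 23.1%, against 20.4% of all genes (10.8% higher and 9.57% lower). Of the members 19.8% were higher, and the median difference was 0.41 for the members against 0.01 for all genes. Every WB library lay above every A2Y library for 32 members, as it did for 17.5% of all genes. At an unadjusted p of 0.05, 35 members passed, and the share of all genes was not counted at this p. Since the A2Y libraries helped to choose the members, nothing is read from these differences from all genes. The differences of single members between WB and A2Y given below carry the same limit.

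TNFRSF12A rose by 2.41 ± 0.53 from A2Y to WB (SE, adjusted p = 0.0051), from 1.78, 1.38 and 1.71 to 4.23, 3.59 and 4.26. ADM, the vasodilator peptide adrenomedullin that responds to low oxygen, rose by 2.05 ± 0.39 (adjusted p = 0.0024), from 2.22, 2.83 and 2.95 to 4.19, 4.80 and 5.17. KLF4 rose by 1.75 ± 0.34 (adjusted p = 0.0026), from 1.65, 1.67 and 1.54 to 4.23, 2.45 and 3.43. In these 3 genes the WB mean was above the newborn mean as well, which was the case in 14 of the 91 members. Over all genes it was the case in 56.8%, and nothing is read from this difference, since the rule chose the members for a high newborn mean. KLF9 rose by 1.30 ± 0.42 (adjusted p = 0.037), a call lost without A2Y replicate 1, WB replicate 2 or WB replicate 3, where the adjusted p reached 0.17.

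SELENOM rose by 1.25 ± 0.22 and PLAT by 1.09 ± 0.24 in WB (adjusted p = 0.0014 and 0.0059). The following genes were named after their values were seen. ANGPTL2, an angiopoietin-like secreted protein, rose by 1.27 ± 0.26, COL12A1 by 1.03 ± 0.19 and LYVE1, the hyaluronan receptor of lymphatic and sinusoidal endothelium, by 0.94 ± 0.21 (adjusted p = 0.0038, 0.0017 and 0.0056). LYVE1 stood at 3.65, 3.20 and 3.68 in WB, 2.39, 2.30 and 3.02 at A2Y and 3.38, 3.86 and 3.26 at B0d, so that WB and newborn values overlapped. DEPP1, CTSV, a lysosomal cysteine protease, and PTPRB, a receptor phosphatase of endothelium, were also called higher and lost the call without at least 1 library.

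**Figure D5:**
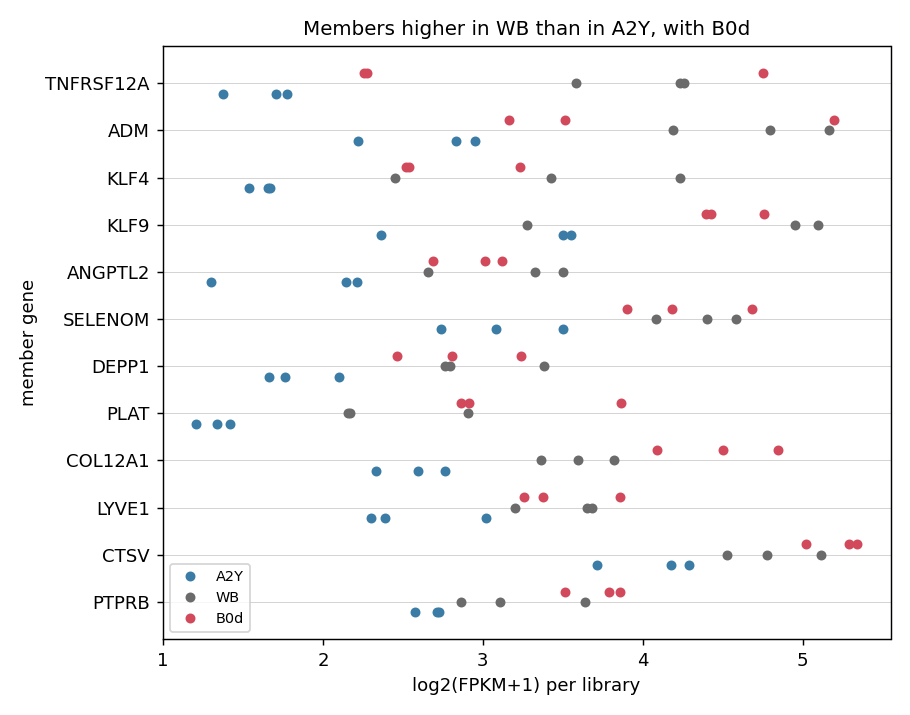
log2(FPKM+1) per library (horizontal axis, points) in A2Y, WB and B0d for the 12 members with a symbol that were higher in WB than in A2Y. For 7 of them (TNFRSF12A, ADM, KLF4, ANGPTL2, SELENOM, DEPP1 and LYVE1) the WB mean exceeds the B0d mean, for LYVE1 at 3.51 against 3.50.

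Several receptors and enzymes of the newborn peak had no called difference in WB. CP differed by 0.53 ± 0.44 (SE, adjusted p = 0.42), AGTR1 by 0.54 ± 0.38 (adjusted p = 0.34), PDGFRA by 0.39 ± 0.24 (adjusted p = 0.27) and C7 by 0.18 ± 0.27 (adjusted p = 0.67). The spread within WB was wide for some of them, with CP at 0.93, 1.41 and 2.85 and AGTR1 at 3.73, 5.14 and 5.42. The WB mean exceeded the means of the 4 domestic stages other than B0d in 55 members and in 26.7% of all genes, shares that the rule affects because it holds those stage means down. All 3 measured B cell markers fell from A2Y to WB, their summed FPKM being 115.1 to 168.4 at A2Y and 38.1 to 42.7 in WB. The stromal marker PDGFRB rose by 1.21, while the other measured one, TLX1, was not called (0.24, adjusted p = 0.51 by limma). Of 14 measured matrix and stroma genes 6 rose. Over all genes 10.8% rose and 9.57% fell. The part of these markers in the differences of the members was not tested.

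The 36 genes that kept the rule without any newborn library were counted in the same comparisons, without a test between the sets. From E55d to W30d 11 rose and 0 fell, from E55d to A2Y 10 rose and 4 fell, and from A2Y to WB 8 rose and 1 fell. Over all genes 49.3, 58.5 and 20.4% were called in these comparisons. Nothing is read from the differences in share, since the spread of the fit included the B0d libraries. In 2 of the 36 genes the WB mean exceeded the newborn mean, as it did in 56.8% of all genes. Nothing is read from this either, since the rule chose the 36 genes for a high newborn mean. When the rule was applied to the newborn libraries without replicate 3 it gave 104 genes, 61 of them shared with the 91. Of these 104 genes, 28 rose and 2 fell from E55d to W30d, 25 rose and 11 fell from E55d to A2Y, and 19 rose and 4 fell from A2Y to WB.

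The members were then set beside lists of related genes. Of 7 measured stress hormone targets, 6 had their highest domestic mean at B0d, but only KLF9 met the rule. Over all genes, 13.4% had their highest domestic mean at B0d. Among the 6 genes the excess was small for DUSP1 (0.12), SGK1 (0.15) and ZBTB16 (0.16). DUSP1 owed it to B0d replicate 3, with newborn values of 5.26, 5.37 and 6.06 against a mean of 5.44 at A2Y. FKBP5, the glucocorticoid-induced cochaperone, stood at 5.72 ± 0.20 (SD, n = 3) at B0d. Its highest other stage mean was 5.25, an excess of 0.48, but W30d replicate 2, at 5.94, lay above every newborn library. PER1, a clock gene, had an excess of 0.54, with B0d replicate 2 at 2.14 and A180d replicate 2 at 2.84. Only in KLF9, 1 of the 7, did every newborn library lie above every other domestic library, as in 1.69% of all genes. Of these 7 genes, 5 rose at W30d and 5 rose at A2Y against E55d, and 5 rose from A2Y to WB, with 0 falling in each, where 30.8, 38.3 and 10.8% of all genes rose. DUSP1, a phosphatase of MAP kinases, rose by 2.12 in WB (adjusted p = 0.000605 by limma). All 3 measured genes of neutrophil chemokines and cytokines, CXCL2, CCL2 and CD14, had their highest domestic mean at B0d, and CXCL2 (0.39 and 0.74 in replicates 1 and 2, against a mean of 1.33 at A2Y) and CCL2 owed it to replicate 3. Of these genes, 0 of 3 differed between WB and A2Y.

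Of 12 hypoxia and glycolysis genes, 2 were highest at B0d, VEGFA and the member ADM, beside the 13.4% of all genes. From A2Y to WB 3 of the 12 rose and 1 fell, where 10.8% of all genes rose and 9.57% fell. ADM itself lost the rule without replicate 3, with newborn values of 3.16, 3.52 and 5.19 against 1.69 to 3.19 in the other domestic libraries. Of 7 acute phase and iron genes, 3 were highest at B0d (CP, ALB and TF), and 2 of these owed it to replicate 3. From A2Y to WB 2 of the 7 rose and 0 fell. Of 8 erythroid genes, 2 were highest at B0d (HBB and CA2), and 7 of the 8 fell from E55d to A2Y, where 20.2% of all genes fell.

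The other lists held 0 members. Beside the 13.4% of all genes, their highest domestic mean was at B0d for 3 of 8 fasting and lipid genes, 3 of 12 immediate early and heat shock genes, 2 of 14 matrix and stroma genes, 1 of 7 neutrophil granule genes and 1 of 6 muscle contraction genes. It was at B0d for 0 of 3 platelet genes, 0 of 12 cell cycle genes and 0 of 8 interferon response genes. Among the 3 immediate early genes, JUNB and EGR2 owed it to B0d replicate 3. JUNB stood at 4.11, 4.15 and 6.03 at B0d against a mean of 4.76 at W30d. EGR2 stood at 0.40, 0.37 and 1.57 against 0.78 at A180d. EGR1, the third, was also highest in replicate 3, at 1.45, 1.73 and 3.50. In the muscle, matrix and fasting lists, ACTA2, THBS1 and PCK1 likewise owed their highest mean at B0d to replicate 3. ACTA2 stood at 7.36, 7.55 and 8.20 at B0d against a mean of 7.61 at A2Y. THBS1 stood at 4.85, 4.74 and 6.44 against 5.17 at W30d, and PCK1 at 0.48, 0.46 and 1.66 against 0.71 at A180d. From A2Y to WB 4 of the 12 immediate early and heat shock genes and 3 of the 6 muscle genes rose. Of the 12 cell cycle genes 2 fell. Over all genes 10.8% rose and 9.57% fell in this comparison.

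Positions of the 54 members whose symbol had a single gene in RefSeq (assembly Sscrofa11.1) were compared by gene order only, since the reads were mapped to another assembly. In 2 pairs, at most 10 protein-coding genes lay between members. LYVE1 and ADM had 2 genes between them, and AGTR1 and CP had 5.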

How the data were processed

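Spleen RNA of 6 groups of 3 female pigs was sequenced (18 libraries). The authors mapped strand-specific reads with TopHat to Sscrofa10.2 with its sex chromosomes replaced, assembled transcripts with StringTie 1.3.3, used Cufflinks 2.2.1 tools, and deposited log2 values, log2(FPKM+1), for 12913 protein-coding genes, 1 column per library. The annotation release is not given in the sources used here. The design of the tests assumed FPKM, and the deposited log2 values were used as they stand. The reads behind a value are unknown, so no counting interval is given. Replicates are separate animals. A p-value sets a difference of group means against the spread between animals within groups, pooled over all 6 groups, B0d included. The E55d columns, numbered 1, 5 and 6, carry no replicate number of the labels. Symbols came from a gene name table that matched 8215 of 12913 identifiers, 56 of them members, and may be of a later release. The lncRNA table was not used.

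The members, gene lists and tests were chosen with earlier results of these data known. Members were found by the rule stated in the report, and B0d levels, which the rule used, were not tested. Genes with FPKM above 0.1 in at least 3 libraries entered 1 limma model of all 6 groups (limma 3.58.1, R 4.3.3), fitted with a mean-variance trend and with Benjamini-Hochberg adjustment over all 12913 genes and a threshold of 0.05. The fit was tested on simulated data. Named genes were the 25 members with a symbol and the largest excess at B0d, members on a list or among the cell markers, and for each comparison the 3 largest rises and falls past the threshold, of which some are not reported here. Other named genes were chosen after their values were seen. Alternatives were other margins, medians, a pseudocount of 0.1, median ratio scaling, other filters, no trend, only the compared groups, a replicate block and leaving out each library. The rule run without B0d replicate 3 was added after the data were seen. Tables and figures were made with Python 3.11.15, pandas 2.3.3, numpy 2.4.6 and matplotlib 3.10.9.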

Additional observations from a re-analysis of the deposited data

How the results depend on the processing

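The number of genes found by the rule was 91, and it was 219 with a margin of 0.5, 35 with a margin of 1 and 168 with a pseudocount of 0.1, while medians, median ratio scaling and an FPKM above 1 gave 75, 82 and 86. Leaving out 1 library gave 86 to 144 genes, and without B0d replicate 1 it gave the 144. Of members called, 38 (31 higher, 7 lower) in place of 25 differed between W30d and E55d and 43 (34 higher, 9 lower) in place of 27 between A2Y and E55d when only the compared groups were fitted. The share of all genes called under the other settings was not counted, so nothing is read from these counts of members. The cause of the change was not tested. With 1 library left out, the counts ran from 20 to 26 for W30d against E55d, from 21 to 26 for A2Y against E55d and from 16 to 25 for WB against A2Y. With members found without B0d replicate 3 they were 30, 36 and 23. No called member with a symbol changed direction under these settings. Of 613 values of these genes under other settings, 554 kept their side of the threshold and 59 did not. Called members without a symbol were not followed in this way. With median ratio scaling, the share of all calls that were higher moved from 62.5 to 51.2% for W30d against E55d and from 65.4 to 50.0% for A2Y against E55d.

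The replicate number as a block gave 20 members (17 higher, 3 lower) that differed between WB and A2Y, in place of 21, with 18 shared. Deviations of A2Y and WB libraries with the same number correlated at 0.0011, -0.072 and 0.12 over genes, so the numbers were not read as pairs. No paired analysis was made for the comparisons with E55d, because each stage held separate animals and the E55d columns carry no replicate number. FPKM without read counts gives no depth for single genes, which limits what can be said of members near 0 in most libraries.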

Other observations

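Of the 35 members without a symbol, 2 are given here by identifier, chosen after their values were seen. ENSSSCG00000005752 had the widest gap between fetus and newborn of all 91 genes, with a difference of 5.22 between the B0d and E55d means on the log2 scale. It stood at 1.29, 0.78 and 0.58 at E55d, at 6.24, 7.14 and 4.93 at B0d and at 4.31 to 5.97 in the later domestic libraries, so the newborn values overlapped the later ones.

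ENSSSCG00000015070 was high before and after birth and low in adult domestic pigs. It stood at 4.22, 3.83 and 3.97 at E55d, at 5.04, 5.48 and 6.46 at B0d and at 4.10, 4.33 and 4.08 at W30d. All these values lay above those of A180d (1.45, 0.07 and 0.43) and A2Y (0.00011, 0.63 and 0.23). In WB it stood at 0.00097, 3.67 and 3.11, and its difference from A2Y was 1.97 ± 0.65 on the log2 scale (SE, adjusted p = 0.043 by limma with Benjamini-Hochberg adjustment), with 2 of 3 WB libraries above every A2Y library.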
